A study of Mus musculus with 2 samples.

Results

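Actin monomers (G-actin), the proteins that hold them in reserve and the proteins that return them to the pool were described here through 10 mouse genes: the cytoplasmic actins Actb and Actg1, the beta-thymosins Tmsb4x and Tmsb10, the cofilins Cfl1 and Cfl2 with destrin (Dstn), the profilins Pfn1 and Pfn2, and the cyclase-associated protein gene Cap1. They were chosen by family name, with their levels in these libraries already known, out of 55536 genes in the gene tables of GENCODE release M21. Their levels are therefore a description and were not tested. The tissue was the neural tube of embryos of strain B6NCrl at embryonic day 12.5, male and female embryos pooled and described as healthy, with no treatment and no mutant group. Replicate 1 was a pool of 120 embryos and replicate 2 a pool of 88 embryos, and each gave 1 library from 10 ng of total RNA, primed with oligo-dT and cut by Nextera tagmentation. With 1 group and 2 libraries there is no comparison of conditions, and any test between the libraries compares those pools. A pool mixes all cells of the dissected tissue, so fewer cells of a type and less RNA per cell cannot be told apart.

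In cells actin cycles between free monomers and filaments. Beta-thymosins bind monomers and keep them from polymerising, profilins carry ATP-loaded monomers to growing filament ends, cofilins and destrin cut and dissolve old filaments, and cyclase-associated protein strips cofilin from used monomers and helps to reload them. In the embryonic neural tube this cycle works in the apical constriction and division of neuroepithelial progenitors and in the growth cones of new neurons.

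The coding sequences show how far these abundant paralogs can be told apart by short reads. Sequences were read from the GENCODE M21 transcripts (mm10) and are given 5′ to 3′ on the coding strand, which is the minus strand for these 4 genes. Tmsb4x lies at chrX:167207501-167208036 from start to stop codon and Tmsb10 at chr6:72957618-72958012, each reading frame being split over 2 exons. Capitals mark the 40 of 135 positions at which they differ.

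Tmsb4x: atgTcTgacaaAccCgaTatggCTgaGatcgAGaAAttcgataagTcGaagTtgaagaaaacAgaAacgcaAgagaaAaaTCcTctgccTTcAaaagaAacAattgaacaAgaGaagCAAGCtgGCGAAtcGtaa

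Tmsb10: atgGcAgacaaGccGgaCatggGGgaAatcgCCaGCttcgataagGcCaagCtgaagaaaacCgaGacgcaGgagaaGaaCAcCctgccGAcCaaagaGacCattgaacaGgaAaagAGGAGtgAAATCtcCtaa

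The longest run of identical bases between them was 10, and 70.4% of positions were identical. The actins were much closer. Of the 1128 coding positions of Actb and Actg1, 1000 (88.7%) were identical, with a longest identical run of 62 bases. The first 60 coding bases, at chr5:142905627-142905686 for Actb and chr11:120348032-120348091 for Actg1, hold 9 of the differences, again in capitals.

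Actb: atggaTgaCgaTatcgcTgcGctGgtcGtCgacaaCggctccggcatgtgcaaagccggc

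Actg1: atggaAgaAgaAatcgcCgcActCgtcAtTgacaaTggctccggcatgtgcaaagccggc

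Cfl1 and Cfl2 had 71.5% identical coding positions, Cfl1 and Dstn 68.6%, Cfl2 and Dstn 66.8%, and Pfn1 and Pfn2 62.8%, each for the most similar pair of complete reading frames. Such a pair was not always of the leading transcripts. The frame used for Cfl1 was that of Cfl1-202. The profilin pair was Pfn2-203 and Pfn1-202, which held 0.022% and 0% of the Pfn1 counts in replicates 1 and 2. No stretch of 100 bases in the main coding transcript of any of the 10 genes was shared with another of them. The 10 genes could thus be kept apart from each other, but not all of them from pseudogenes and overlapping genes. Of the 100-base windows of Actg1, 51.1% also occurred in another gene, all of these being processed pseudogenes. For Tmsb10 the share was 27.8%, with Gm3788 and Gm9844. It was 2.29% for Cfl1, 1.19% for Cap1, which shares bases with its neighbour Ppt1, 1.10% for Actb, and 0 for the other 5 genes. The deposited posterior standard deviation of the count, which measures how uncertainly reads were assigned, was nevertheless small against the counts. For Actg1 it was 38.3 of 107938 counts in replicate 1 and 32.4 of 113763 in replicate 2. It was 0 in both libraries for Tmsb4x, Cfl2, Dstn, Pfn1 and Pfn2. The 12 pseudogenes at least 90% identical to Actg1 over at least 300 bases summed to 32.2 and 26.7 TPM (a level scaled for transcript length and for the size of the library) in replicates 1 and 2, most of it from Gm12715 at 24.2 and 18.7 TPM.

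Totals were 33529531 and 35461403 estimated counts, of which 2.99% and 2.89% came from the ERCC spike-in RNAs. All 6 neural progenitor markers and all 6 neuron markers listed reached 1 TPM in each library, with summed levels of 2786 and 2873 TPM and of 1953 and 2128 TPM. Genes listed for other tissues reached 1 TPM too. All 12 skeletal muscle genes summed to 257 and 194 TPM, and all 6 sensory ganglion genes to 305 and 430 TPM. All 6 erythroid genes summed to 6871 and 6820 TPM, all 7 mesenchyme genes to 843 and 867 TPM, and all 5 endothelial genes to 105 and 109 TPM. Whether neural tube cells also make some of these genes was not tested. Of the other lists, 7 of 8 macrophage and microglia genes (summing to 96.3 and 103 TPM), 4 of 6 smooth muscle and pericyte genes (39.4 and 41.0 TPM) and 1 of 6 forebrain and midbrain genes (5.92 and 7.58 TPM, with 4 at 0 in at least 1 library) reached 1 TPM in both. How much of each gene's level came from cells outside the neural tube was not tested.

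Together the 10 genes held 2.85% of all TPM in replicate 1 and 2.76% in replicate 2, a mean of 2.81% ± 0.063 (SD, n = 2), and 1.66% and 1.63% of the counts on genes. Among 22015 nuclear protein-coding genes, 5 of them (Actb, Tmsb4x, Tmsb10, Actg1 and Cfl1) ranked in the top 20 by mean TPM and 6, with Pfn1, in the top 100. By family the cytoplasmic actins gave 51.7% and 48.3% of the TPM of the 10 genes, the thymosins 32.8% and 35.6%, the cofilins with destrin 11.1% and 11.7%, the profilins 4.20% and 4.34%, and Cap1 0.164% and 0.0990%.

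Actb, the cytoplasmic beta-actin, had 11885 TPM in replicate 1 and 10436 TPM in replicate 2. Actg1, the gamma-actin that differs from it in a few residues near the start of the protein, had 2861 and 2904 TPM. Tmsb4x, the thymosin beta-4 gene, had 4770 and 5567 TPM, and Tmsb10, its paralog of immature neural tissue, 4575 and 4259 TPM. On the gene-level scale of M21 the thymosins thus stood between the actins, and the ranges of the thymosins did not overlap. Tmsb4x was above Tmsb10 in both libraries, with a narrow gap in replicate 1.

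Cfl1, the non-muscle cofilin, had 2643 and 2651 TPM, just below Actg1 in both libraries. Cfl2, the muscle cofilin that other tissues also make at lower levels, had 240 and 266 TPM, and Dstn, which encodes the actin-depolymerising factor, 289 and 308 TPM. Of the 3 genes of this family, Cfl1 was about an order of magnitude above the others.

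Pfn1, the widely expressed profilin, had 906 and 911 TPM. Pfn2, the profilin known for its high level in brain, had 292 and 287 TPM, so that its range overlapped that of Dstn. Cap1 was the lowest of the 10, at 46.7 and 27.3 TPM. By mean TPM in M21 the order was Actb, Tmsb4x, Tmsb10, Actg1, Cfl1, Pfn1, Dstn, Pfn2, Cfl2, Cap1. In it the ranges of the 2 libraries overlapped only between Dstn and Pfn2. In the older release M4 the ranges of Actb (5994 and 5833 TPM) and Tmsb4x (5024 and 5844 TPM) overlapped, with Tmsb4x higher in replicate 2. There Pfn2 (335 and 327 TPM) was above Dstn (304 and 323 TPM) in both libraries.

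**Figure D1:**
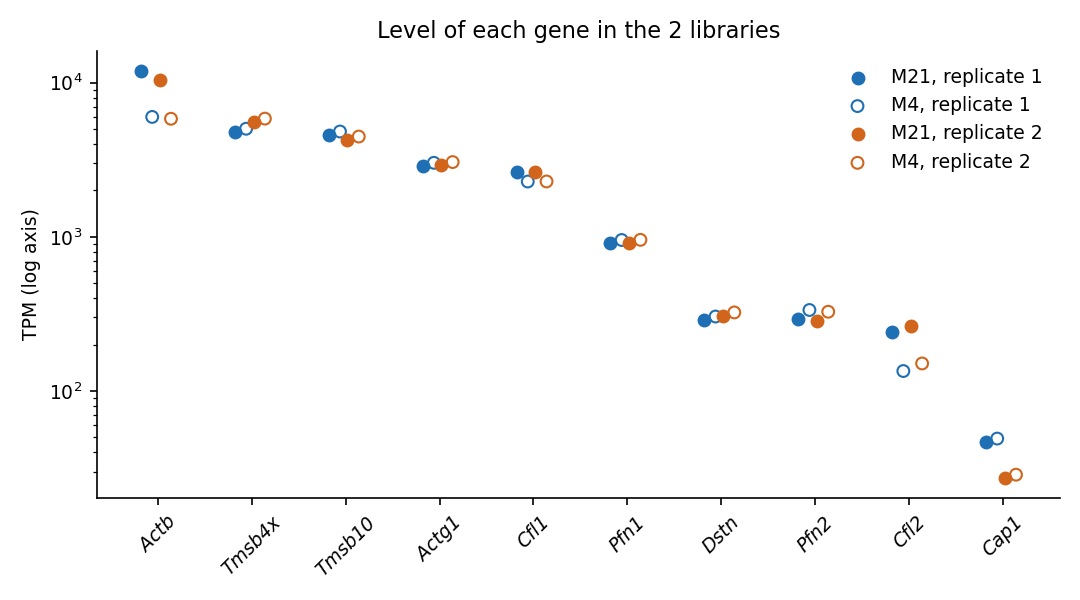
Level of each of the 10 genes in TPM (log axis), 1 point for each library (blue replicate 1, orange replicate 2), with filled points from the M21 gene tables and open points from the M4 gene tables. Actb is at 11885 and 10436 TPM in M21 and at 5994 and 5833 TPM in M4, Cfl2 is also lower in M4, and Cap1 is the gene whose libraries are farthest apart.

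The level of Actb depended on which transcripts the annotation listed. In M21 a short transcript, Actb-209, took 56.5% of the gene's TPM in replicate 1 and 50.7% in replicate 2, which is 6716 and 5290 TPM. The full-length coding transcript Actb-201 had 5135 and 5108 TPM. Actb-209 is annotated as a processed transcript without a reading frame. It spans chr5:142903234-142903654 and its exons, of 74 and 167 bases, lie wholly inside the 683-base 3′ UTR of Actb-201, the first of them 143 bases away from the stop codon. It leaves out an intron of 180 bases that begins with GT and ends with AG, the usual letters at splice sites. Every base of its 241 is also in Actb-201, so only reads across that junction, or the spread of reads along the gene, can assign reads to it.

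On the count scale Actb-209 was a small part of the gene. It received 19973 and 16277 estimated counts, or 9.23% and 7.45% of those of Actb, with posterior standard deviations of 106 and 111. Its length is 12.6% of that of Actb-201 and its effective length, the number of positions at which a fragment could start, was 142 bases against 1821. Division by that length turned a small share of counts into most of the TPM. In the tables of GENCODE M4, an older release that lacks Actb-209, the counts of Actb were 216379 and 218453, against 216373 and 218443 in M21, while its TPM were 5994 and 5833. The counts thus differed by about 10 reads or fewer between the releases and the mean TPM by 1.89-fold. Whether a transcript spliced as Actb-209 was present at this level was not tested, since reads are not analysed here.

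**Figure D2:**
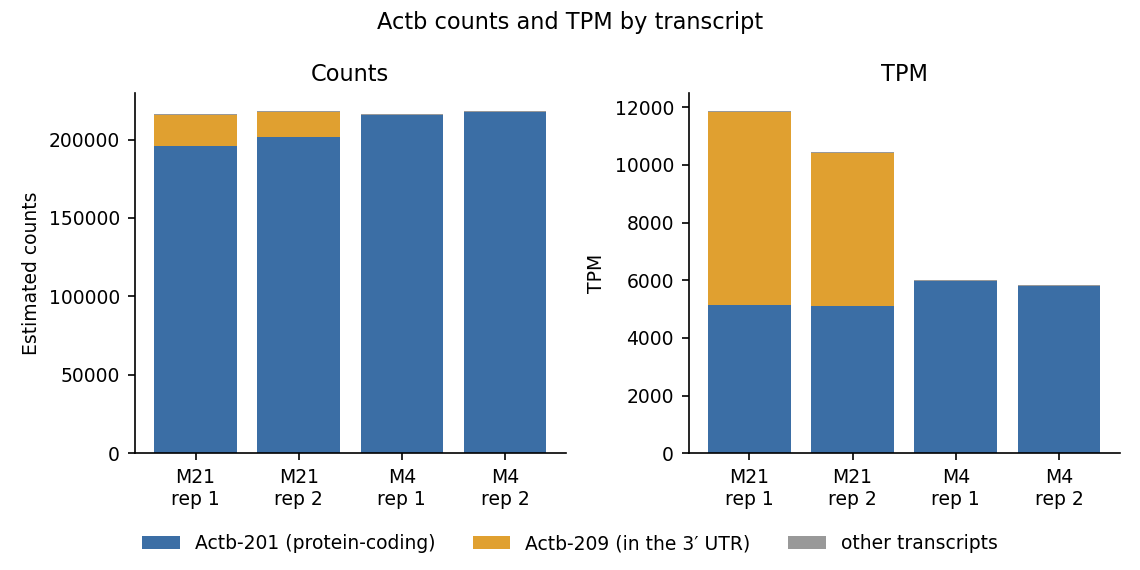
Estimated counts (left) and TPM (right) of Actb in each library (rep 1 and rep 2) under M21 and M4, each bar stacked by transcript, with the coding Actb-201 in blue, Actb-209 in amber and the other transcripts in grey. The amber part is 9.23% and 7.45% of the counts but 56.5% and 50.7% of the TPM in M21, and is missing in M4.

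For Cfl2 too, non-coding transcripts took most of the TPM, but with a larger share of the counts than for Actb. Its only protein-coding transcript, Cfl2-201, held 34.2% and 35.7% of its TPM (82.1 and 94.8 TPM), and 62.2% and 64.0% of its counts. The processed transcripts Cfl2-203 (40.5% and 37.7% of TPM) and Cfl2-204 (12.0% and 12.1%) and the retained-intron transcript Cfl2-205 (9.96% and 10.0%) took most of the rest. All 1128 bases of Cfl2-203 lie in exons of Cfl2-201. In M4, where Cfl2-201 holds all of the gene, Cfl2 had 135 and 151 TPM, and the M21 mean was 1.77 times the M4 mean. Actb and Cfl2 were the 2 genes of the 10 whose mean TPM differed over 1.5-fold between the releases.

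Cfl1 had 3 coding transcripts of note. Cfl1-201 held 68.4% and 69.0% of its TPM, Cfl1-204 26.8% and 26.7%, and Cfl1-202 4.39% and 3.88%. They are annotated with different reading frames, of 684, 537 and 501 coding bases in that order. Cfl1-204 shares 388 of its coding bases with Cfl1-201, and Cfl1-202 shares 499 of its 501. M4 lists Cfl1-201 alone, with 47653 and 49525 counts against 55302 and 57052 for the gene in M21, so here the newer release also gained reads. For Actg1, Actg1-202 held 70.7% and 73.4% and Actg1-204 27.9% and 25.5%, both with the same 1128 coding bases. The posterior standard deviation of the Actg1-204 count, 1305 of 28916 in replicate 1, was larger than the one for the whole gene, because these transcripts share most of their bases.

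Pfn2 was split between transcripts with different reading frames. Pfn2-202, with a frame of 276 coding bases, held 63.1% and 64.4% of its TPM, and Pfn2-201, with 423 coding bases that include those 276, held 31.8% and 30.1%. Pfn2-203, whose frame of 333 bases shares 178 with Pfn2-202, held 4.84% and 5.09%. The order of the first pair was the reverse in M4, where Pfn2-201, annotated there with 1827 bases in place of 2342, held 97.1% and 96.9% and Pfn2-202 0.34% and 0.27%. Which of them led in the tissue thus cannot be read from these tables. Other genes were close to a single transcript: Tmsb4x-201 held 99.1% and 99.0%, Tmsb10-203 98.0% and 98.1%, and Pfn1-201 98.2% and 98.4% of their genes' TPM, and Dstn has 1 transcript in M21. Cap1-201 held 66.1% and 73.8% of the Cap1 TPM, followed by Cap1-202 with 11.0% and 7.98% and Cap1-203 with 10.2% in both libraries.

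**Figure D3:**
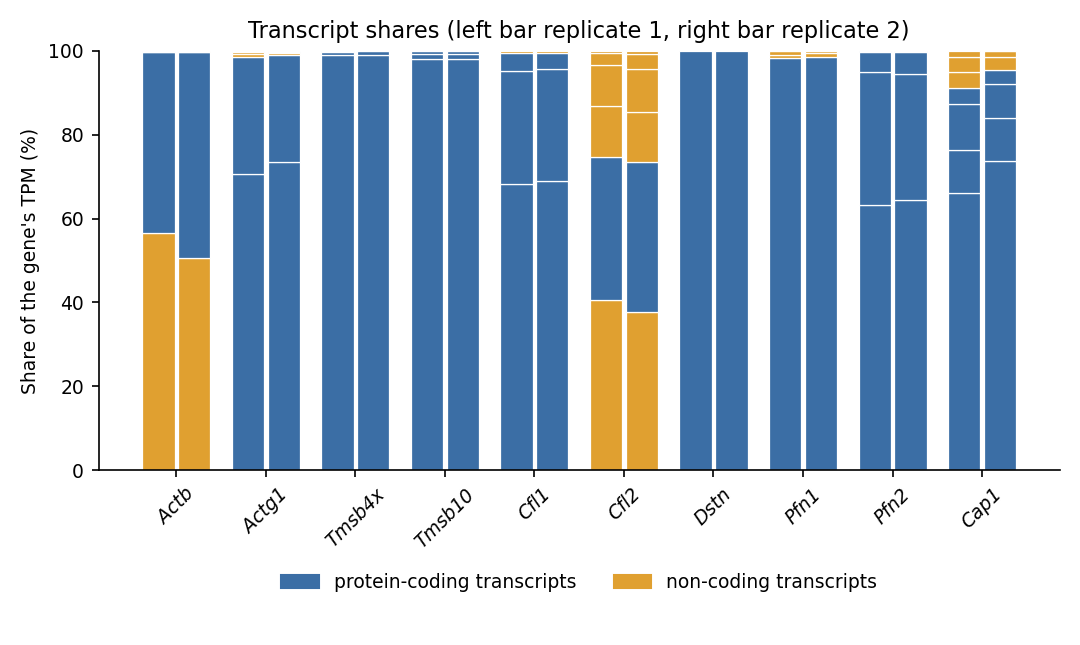
Share of each gene's TPM (percent) by transcript in M21, the left bar of each pair for replicate 1 and the right bar for replicate 2, with protein-coding transcripts in blue and non-coding ones in amber. Coding transcripts hold 43.3% and 49.1% of Actb and 34.2% and 35.7% of Cfl2, and 91.2% or more of each of the other 8 genes.

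Ratios within a library do not depend on how the libraries were scaled. On the M21 scale the log2 ratio of Actb to Actg1 was 2.05 in replicate 1 and 1.85 in replicate 2, or 4.15-fold and 3.59-fold. It was 0.99 and 0.93 in M4, and 1.03 and 0.97 when the M21 counts were divided by the effective length of the main coding transcript of each gene. The last way was added after the data were seen. Actb was above Actg1 in all 3, by close to a factor of 2 in the last 2.

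The log2 ratio of Tmsb4x to Tmsb10 was 0.06 and 0.39, and was the same in M4. It was the paralog ratio that differed most between libraries relative to its size, at 1.04-fold and 1.31-fold. Cfl1 was 11.0-fold and 9.98-fold above Cfl2 in M21, a log2 ratio of 3.46 and 3.32, and 4.08 and 3.92 in M4. Cfl1 over Dstn was 3.19 and 3.10. Dstn and Cfl2 were close in M21, at a log2 ratio of 0.27 and 0.21, and farther apart in M4, at 1.17 and 1.10. Pfn1 over Pfn2 was 1.63 and 1.67, with the libraries nearer each other than for any other ratio in M21.

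Set against both cytoplasmic actins, the order of the families depended on how transcripts were counted. The log2 ratio of summed thymosin to summed actin TPM was -0.66 and -0.44 in M21, so that thymosin TPM were below actin TPM. In M4 it was 0.13 and 0.21, and with 1 transcript length per gene 0.14 and 0.23, so that they were above. Both libraries changed sign together. The profilins were at -3.62 and -3.48 against the actins in M21 and at -2.81 and -2.79 in M4, and the cofilins with destrin at -2.22 and -2.05 in M21 and at -1.73 and -1.69 in M4.

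**Figure D4:**
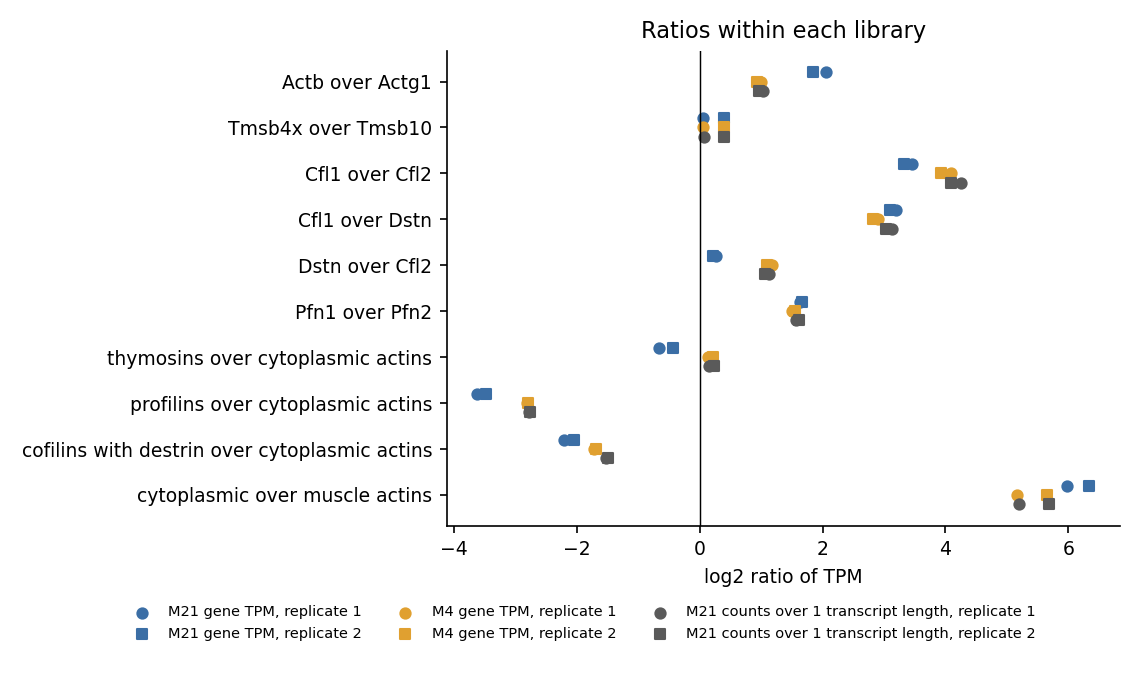
Log2 ratio of TPM within each library for 10 ratios (circles replicate 1, squares replicate 2), from M21 gene TPM (blue), M4 gene TPM (amber) and M21 counts over the effective length of 1 coding transcript per gene (grey). The ratio of thymosins to cytoplasmic actins is below 0 in M21 (-0.66 and -0.44) and above 0 in both other ways, while the ratio of Tmsb4x to Tmsb10 hardly moves.

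The 2 pools were then compared gene by gene, as log2 of replicate 2 over replicate 1 on counts scaled by trimmed mean of M values (TMM). All 10 genes had at least 10 counts in both libraries. In an exact binomial test with Benjamini-Hochberg adjustment over 20125 genes, 8 of the 10 passed at an adjusted p under 0.05, against 20.3% of all genes tested. Of these, 3 were higher in replicate 2 (10.5% of all genes) and 5 lower (9.78% of all genes). This test counts sampling of reads only, and with deep counts such as these it calls differences of a few percent. edgeR's exact test at the spread common to all genes, a coefficient of variation of 7.36%, called 1 of the 10, Cap1, against 1.13% of all genes. That spread was estimated from the same 2 libraries. The other 9 had an edgeR exact test adjusted p of 1.

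Cap1 fell from 2239 counts in replicate 1 to 1409 in replicate 2. The log2 ratio was -0.76, with an adjusted p of 2.31e-52 in the exact binomial test and of 0.00056 in the edgeR exact test, and the library from 120 embryos was the higher one. All 7 transcripts of Cap1 were lower in replicate 2, Cap1-201 at 30.9 and 20.2 TPM, Cap1-202 at 5.16 and 2.18 TPM and Cap1-203 at 4.79 and 2.80 TPM. Among 9835 genes with a mean of at least 10 TPM, 16 had a lower ratio. Ppt1, the lysosomal thioesterase gene that shares bases with Cap1, had 2453 and 2728 counts, and Cap2, the other cyclase-associated protein gene, 459 and 419 counts (log2 ratio -0.22, exact binomial test adjusted p = 0.0943).

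Tmsb4x rose from 66798 to 80632 counts, a log2 ratio of 0.18 (exact binomial test adjusted p = 3.74e-126). Tmsb10 fell from 45061 to 43399 counts, a log2 ratio of -0.14 (exact binomial test adjusted p = 1.21e-46). The thymosins thus moved in opposite directions between the pools. Cfl2 rose by 0.12 and Dstn by 0.05 (in M4 the exact binomial test adjusted p for Dstn was 0.0519), and Actb (-0.08), Pfn2 (-0.08) and Cfl1 (-0.04) fell. Actg1, at -0.01 (exact binomial test adjusted p = 0.114), and Pfn1, at -0.03 (0.304 in that test), did not pass. With libraries scaled by spike-in RNAs the median of all genes shifted by 0.056 and with TPM by 0.039. With TPM the direction came from the TPM ratio, and the adjusted p from counts scaled by the reads per TPM of each library. A gene called that way can therefore have counts and TPM that differ in direction. Under both the spike-in and the TPM scaling Actg1, Pfn1 and Cfl1 turned to ratios above 0. Actg1 then passed as higher (exact binomial test adjusted p = 1.25e-10 and 0.000163), although in M4 it passed as lower (0.0206 in that exact test). Cfl1 (0.339 and 0.801) and Pfn2 no longer passed, which left 4 genes higher and 3 lower. The shares of all genes were 19.3% higher and 5.82% lower with spike-in scaling and 15.7% and 7.31% with TPM. In both, Cap1, Actb and Tmsb10 stayed lower, and Tmsb4x, Cfl2 and Dstn higher, in replicate 2.

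For Actb the libraries differed by 12.2% in M21 TPM but by 5.09% in scaled counts. Actb-201 alone, at 5135 and 5108 TPM, was nearly level, and most of the TPM difference lay in Actb-209.

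**Figure D5:**
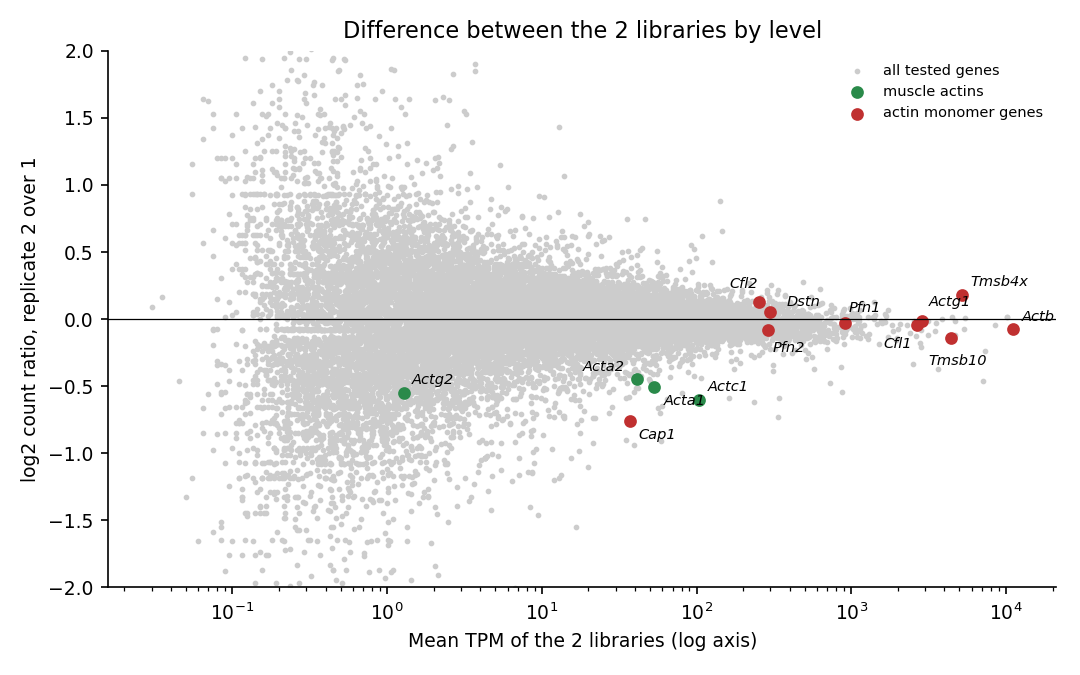
Log2 ratio of scaled counts, replicate 2 over replicate 1, against the mean TPM of the 2 libraries (log axis), with all tested genes in grey, the 10 genes in red and the muscle actins in green. Outside the plotted range lie 128 grey genes beyond 2 log2 units. Cap1 is at -0.76 and the other 9 red points lie between -0.14 and 0.18.

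The muscle actins, which build sarcomeres and smooth muscle, were low but measurable. Actc1, the cardiac alpha-actin that embryonic skeletal muscle also makes, had 124 and 83.8 TPM, Acta1, the skeletal alpha-actin, 61.1 and 44.4 TPM, Acta2, the vascular smooth muscle actin, 47.3 and 35.5 TPM, and Actg2, the enteric one, 1.55 and 1.01 TPM. The cytoplasmic actins summed to 63.0-fold and 81.0-fold of them. All 4 had lower values in replicate 2. In the exact binomial test Actc1 (log2 ratio -0.60), Acta1 (-0.50) and Acta2 (-0.45) passed, with adjusted p of 1.73e-55, 2.42e-19 and 1.23e-16, and in the edgeR exact test Actc1 alone did (adjusted p = 0.0153). Of the 12 skeletal muscle markers 11 were also called lower in replicate 2 by the exact binomial test, beside 9.78% of all genes, and none higher, with a median log2 ratio of -0.45. The sensory ganglion markers moved the other way, all 6 being called higher, beside 10.5% of all genes, with a median of 0.53. The edgeR exact test called fewer, 2 of the 12 skeletal muscle and 3 of the 6 sensory ganglion markers, beside 1.13% of all genes. The 6 smooth muscle and pericyte markers had none called. The part of these markers in the muscle actin values was not tested.

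Of the wider machinery, 110 regulators were listed, muscle actins included. All but Pfn3, Tmsb15a, Actbl2, Was and Vil1 had enough counts to test. In the exact binomial test 22 were higher and 15 lower in replicate 2, beside 10.5% and 9.78% of all genes, and the median log2 ratio was 0.03. The balance depended on the scaling: 45 were higher and 8 lower with spike-in scaling, beside 19.3% and 5.82% of all genes, and 36 and 10 with TPM, beside 15.7% and 7.31%. Counts for the separate lists are read against the same shares. edgeR's exact test called 1 of them, Actc1. The lists were drawn up with earlier results of these libraries known.

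Among the Arp2/3 subunits and their activators, which start branched filaments, 6 of 20 tested were higher and 3 lower, against 11 and 1 with spike-in scaling and 9 and 1 with TPM. Arpc2 had 293 and 311 TPM, Arpc4 307 and 278 TPM, and Arpc5 230 and 253 TPM. Among formins and Ena/VASP proteins, which extend unbranched filaments, 2 of 17 were higher and 4 lower, against 3 and 2 with spike-in scaling and 2 and 2 with TPM. Of these, Evl (118 and 123 TPM), Vasp (44.0 and 42.1 TPM) and Enah (35.7 and 34.1 TPM) were the most abundant. Of the genes that cap, cut or recycle filaments, 7 of 17 were higher and none lower, beside 10.5% and 9.78% of all genes. The 7 included the capping protein subunits Capzb (267 and 294 TPM) and Capza2 (179 and 203 TPM) and the coronin Coro1c (202 and 230 TPM). With spike-in scaling 9 were higher and none lower, and with TPM 8 and 1. No difference within this list passed the edgeR exact test.

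The kinases and phosphatases that switch cofilin off and on had 1 of 13 higher and 1 lower, but 6 higher and 1 lower with spike-in scaling and 5 and 1 with TPM. Limk2, which phosphorylates cofilin, had 91.4 and 95.8 TPM, and the upstream kinases Pak1 and Pak3 had 76.5 and 83.0 TPM and 61.4 and 57.9 TPM. Serum response factor and its listed cofactors were low. Srf had 4.40 and 6.64 TPM (log2 ratio 0.35, exact binomial test adjusted p = 0.0442) and Mrtfa, the cofactor that binds monomers, 20.7 and 23.8 TPM (0.28, adjusted p = 5.68e-05 in that exact test). These were the 2 of 7 genes of the list that passed, both higher in replicate 2, and Srf no longer passed without the count filter. With spike-in scaling 3 were higher and none lower, and with TPM 2 were higher and none lower. No gene passed the edgeR exact test in this list. Elk3 and Elk4, the other partners among its top 3, had 14.8 and 16.8 TPM and 12.7 and 12.7 TPM.

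Among crosslinkers, tropomyosins and myosin II chains 4 of 18 were higher and 3 lower, against 11 and 1 with spike-in scaling and 8 and 2 with TPM. Marcksl1, a membrane-bound actin-binding protein, had 1783 and 1674 TPM, Myl6, a myosin light chain, 711 and 694 TPM, and Fscn1, which bundles the filaments of growth cone spikes, 574 and 589 TPM. These levels exceeded those of Pfn2, Dstn and Cfl2.

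Other relatives were all below Cfl2 (240 and 266 TPM), while some, Actr1a among them, were above Cap1 (46.7 and 27.3 TPM). Of 12 listed, 9 reached 1 TPM in each library, led by the dynactin subunit genes Actr1a (203 and 212 TPM) and Actr1b (92.8 and 103 TPM) and the chromatin-remodelling actin-like gene Actl6a (135 and 136 TPM). Actl6b, its neuronal counterpart, had 92.3 and 85.8 TPM and was the 1 of 9 tested that passed (log2 ratio -0.14, exact binomial test adjusted p = 0.00594), a call lost with spike-in and TPM scaling, where 2 others passed as higher. Pfn3, Tmsb15a and Actbl2 had at most 2 counts in a library.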

How the data were processed

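The 2 libraries are separate embryo pools of 1 group, and replicate numbers are those of the labels. RNA came from mirVana extraction, with cDNA made by the SMARTer Ultra Low kit, per the labels' protocols. The deposited gene and transcript tables hold expected counts (not whole numbers), posterior SDs of counts, TPM and its credibility bounds (a signal that is never negative), and the percent that a transcript makes up of the TPM of its gene. They were made on mm10 with GENCODE M21 and M4, per the files deposited beside them. The column names are those RSEM writes, while neither aligner nor quantifier is named in the sources used here. Reads carry no molecular identifiers, so PCR copies count as reads. The binomial test covers counting error only, and it treats every read, PCR copies included, as an independent draw. The kit does not mark strand, so overlapping genes such as Cap1 with Ppt1 or Cfl1 with Snx32 are split by the authors' model alone.

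Rows were matched by gene ID to the GENCODE M21 annotation. For the comparison of the libraries expected counts were rounded, genes kept that reached 10 counts in at least 1 library, and libraries scaled by TMM (edgeR 4.0.16). Log2 ratios used a prior count of 2, and an exact binomial test per gene (scipy 1.17.1) was adjusted by Benjamini-Hochberg over all 20125 genes. Alternatives were DESeq2 (1.42.0) size factors, spike-in scaling, TPM ratios, no count filter (genes with at least 1 count), edgeR's exact test, M4 and a prior count of 0.5. For TPM ratios only the direction came from TPM, while the binomial test used counts scaled by the reads per TPM of each library. The binomial test was tried on simulated counts that held read sampling alone. Those counts had no spread between libraries, so they cannot show how the test behaves with such spread. p-values compare 2 libraries, not conditions, and with 2 libraries per group means ± SD rest on n = 2. Similar pseudogenes were found with BLAST 2.17.0, and paralogs aligned with Biopython 1.88. Named genes were all 10 members, the 3 highest of each list by mean TPM, those passing the test beyond 0.5 log2 units at a mean of at least 5 TPM, and all muscle actins. Srf, Cap2, Ppt1, Gm12715, Actl6b and the genes near 0 were named after their values were seen. Members and lists were chosen with earlier results of these data known.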

Additional observations from a re-analysis of the deposited data

How the results depend on the processing

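Several ratios depended on the transcripts counted. They were recomputed from M4, from protein-coding transcripts only, and with all counts of a gene over 1 effective length. The log2 ratio of thymosins to cytoplasmic actins reversed from -0.55 to 0.17, 0.26 and 0.19 (the last way was chosen after the data were seen). In the same order, Actb over Actg1 moved from 1.95 to 0.96, 0.85 and 1.00, profilins over actins from -3.55 to -2.80, -2.76 and -2.78, cofilins with destrin over actins from -2.13 to -1.71, -1.40 and -1.51, and cytoplasmic over muscle actins from 6.16 to 5.41, 5.35 and 5.44. The cofilin genes also change their transcripts between these ways: Cfl1 over Cfl2 moved from 3.39 to 4.00, 4.90 and 4.17 and Dstn over Cfl2 from 0.24 to 1.14, 1.76 and 1.09. In M4 and with 1 effective length, Cfl1 over Dstn moved from 3.15 to 2.87 and 3.07, and Pfn1 over Pfn2 from 1.65 to 1.53 and 1.60. The members' summed share of TPM, 2.81%, was 2.31% in M4, 2.72% from posterior means, 3.48% of protein-coding genes only and 2.22% with 1 effective length. With edgeR's exact test 1 member was called in place of 8, and 1 other regulator in place of 37; that test adds the spread common to all genes. Between libraries, log2 ratios reversed for Actg1 (0.0428 with spike-in scaling, 0.0216 with TPM), Cfl1 (0.0119 and 0.00421) and Pfn1 (0.0303 and 0.00819); the median of all genes moved by 0.056 and 0.039. With posterior means or a pseudocount of 1 TPM every ratio stayed within its SD. No paired analysis was possible because there is 1 group.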
